A study of Mus musculus with 6 samples.

Results

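The nuclear genes for the subunits of the oxidative phosphorylation machinery were compared between aortas of Mymsl knockout (KO) and wild-type (WT) mice. Mymsl is a gene for a long noncoding RNA. Members were taken by gene symbol: the Nduf genes of complex I, the Sdh genes of complex II, the Uqcr genes and Cyc1 of complex III, Cycs for cytochrome c, the Cox4 to Cox8 genes of complex IV and the Atp5 genes of complex V, with 1 pseudogene name left out. They came to 85 of the 53735 rows of the count table, namely 36 for complex I, 4 for complex II, 9 for complex III, 1 for cytochrome c, 18 for complex IV and 17 for complex V. A few symbols stand apart from their label. Ndufa4 is listed with complex I by its name, although its protein is a subunit of complex IV. Cox7a2l encodes a factor that joins complexes III and IV, and Atp5s and Atp5sl share the Atp5 name without encoding a subunit of complex V.

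Both groups had 3 libraries, and the genotype at Mymsl is the only difference that the labels name. Per the labels' protocols, RNA was taken from aortic smooth muscle cells after purification of the media, the muscular layer of the vessel wall, and libraries were made with a stranded mRNA kit. The sources used here do not give strain, age, sex or the allele used. The series text speaks of KO and WT mice in 3 pairs, which matches the number of libraries, but it ties no library to a mouse, so a p-value measures spread from library to library. The table has no row of the name Mymsl, and the deletion itself was not analysed here.

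Oxidative phosphorylation is the last stage of energy release from nutrients in mitochondria. Complexes I and II pass electrons from NADH and succinate to ubiquinone, complex III passes them on to cytochrome c, and complex IV hands them to oxygen. Protons pumped on the way drive complex V, which makes ATP. Most subunits are encoded in the nucleus and imported, while a small core of complexes I, III, IV and V is encoded in mitochondrial DNA. Contractile smooth muscle of arteries also draws on glycolysis, and several complex IV subunits come in isoforms that differ between tissues.

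Total counts lay between 23506674 and 25521123 in WT and between 20048216 and 23243129 in KO. Mitochondrially encoded rows held 5.66% to 9.018% of all counts in WT and 10% to 18.9% in KO, with the highest share in KO replicate 1. The smooth muscle markers were abundant in every library: the summed level of 10 markers was 52500 to 56020 CPM in WT and 43760 to 57810 CPM in KO. CPM are read counts scaled to a common library size after trimmed mean of M values (TMM) normalization. Markers of other cells were present too. Summed levels in WT and KO were 377.7 to 498.9 and 429.6 to 735.5 CPM for 10 endothelial markers, 1247 to 1975 and 1187 to 2404 CPM for 8 markers of adventitial fibroblasts, and 52.26 CPM at the lowest and 138.4 CPM at the highest library for 10 macrophage markers. The other lists summed to 543.5 to 724.3 CPM for fat of any kind, 266.0 to 298.0 CPM for Schwann cells, 8.695 to 14.26 CPM for skeletal muscle and 20.30 to 151.7 CPM for erythroid cells. In a bulk sample, fewer cells of a type and less RNA per cell cannot be told apart.

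Promoter stretches are shown for 6 members that stand for the patterns described further on. They are Cox6a1 with the highest level per length, Sdha with KO libraries below WT, Atp5k and Atp5e with KO libraries above WT, and the isoform pair Cox7a2 and Cox7a1. Each covers the 170 bases before the RefSeq start on the gene's own strand, build GRCm38.p6, and capitals mark matches to the 4 motifs searched. Cox6a1 lies at chr5:115348959-115349128 on the minus strand, Sdha at chr13:74350241-74350410 minus, Atp5k at chr5:108434400-108434569 minus, Atp5e at chr2:174464102-174464271 minus, Cox7a2 at chr9:79759854-79760023 minus and Cox7a1 at chr7:30184001-30184170 plus.
Cox6a1: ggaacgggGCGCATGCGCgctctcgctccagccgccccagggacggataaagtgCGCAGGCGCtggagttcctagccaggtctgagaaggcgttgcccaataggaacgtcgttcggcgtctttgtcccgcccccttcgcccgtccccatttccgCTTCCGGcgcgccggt
Sdha: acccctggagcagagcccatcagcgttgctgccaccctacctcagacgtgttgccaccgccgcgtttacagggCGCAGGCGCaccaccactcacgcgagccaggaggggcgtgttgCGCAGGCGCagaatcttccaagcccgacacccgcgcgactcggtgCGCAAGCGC
Atp5k: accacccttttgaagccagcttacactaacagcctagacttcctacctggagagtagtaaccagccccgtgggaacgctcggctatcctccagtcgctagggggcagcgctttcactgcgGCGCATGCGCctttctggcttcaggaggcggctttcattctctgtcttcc
Atp5e: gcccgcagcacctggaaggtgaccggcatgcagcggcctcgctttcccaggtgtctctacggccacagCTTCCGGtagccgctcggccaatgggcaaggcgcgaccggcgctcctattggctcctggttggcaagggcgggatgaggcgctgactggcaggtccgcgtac
Cox7a2: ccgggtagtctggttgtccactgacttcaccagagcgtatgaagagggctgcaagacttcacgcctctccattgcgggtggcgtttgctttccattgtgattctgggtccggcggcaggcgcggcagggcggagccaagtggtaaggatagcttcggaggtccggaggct
Cox7a1: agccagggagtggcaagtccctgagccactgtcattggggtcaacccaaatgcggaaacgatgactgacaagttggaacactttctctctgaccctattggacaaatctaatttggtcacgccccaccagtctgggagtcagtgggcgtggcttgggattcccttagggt

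The motifs were those of 4 factors known to bind promoters of respiratory genes, searched on both strands from 250 bases before to 50 after the RefSeq start. A window was found for 67 of the 85 members and for 27025 genes in all, of which 9789 were among the tested rows. The NRF1 motif (GCGCNTGCG) was in 24 members, 35.8% of those with a window, against 7.12% of all genes and 15% of tested genes. A longer form with a further C at its end was in 17 members (25.4%), against 5.19% and 11.2%. The ETS motif bound by GABPA (CCGGAAG) was in 16 members (23.9%), against 9.93% of all and 19.1% of tested genes. The YY1 motif (AAGATGGC) was in 9 members (13.4%), against 3.19% and 5.15%. The motif of estrogen-related receptors (AAGGTCA) was in 8 members (11.9%), against 5.38% and 3.87%. In these members no match shared bases with a match of another motif, and 42 of 67 members held at least 1 of the 4. Sdha held the NRF1 letters at 97, 54 and 9 bases before its start, and Cox6a1 held them at 162 and 116 bases. A match is a string of letters and shows no binding.

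Nearly all subunit genes were expressed in the medial smooth muscle preparations. The low-count filter kept 82 of 85. Cox7b2 and Cox8c, testis isoforms, had 0 counts in every library, which allows up to 3 counts per library for counting error alone, and Cox6a2 had too few. Per kilobase of exon (RPKM), 70 of the 82 had a WT mean above 10 and 16 had one above 100. Median WT levels were 41.8 RPKM in complex I, 43.1 in complex II, 51.4 in complex III, 51.6 in complex IV and 50.5 in complex V. The highest in each complex were Ndufa2 at 141, Sdhd at 58.4, Uqcrh at 134, Cox6a1 at 239 and Atp5a1 at 154 RPKM. Cycs, the mobile carrier between complexes III and IV, was at 5.53 RPKM. A low value was also found for Atp5l, the g subunit of complex V, at 0.709 RPKM. RPKM here divide by the union of all annotated exons, 6443 bases for Atp5l, while its transcript used to search for copies has 544 bases. A long union lowers the RPKM of a gene, which also bears on the medians and rankings above. Transcripts of 9 other annotated genes matched Atp5l at 95% identity or more over at least 50% of its length, so its count is uncertain. Such copies existed for 11 of the 85 members, and 28 overlapped a gene on the opposite strand, which matters because the strand setting of the counting is not given.

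No subunit gene passed the test of KO against WT after adjustment, and most differences were small. With the quasi-likelihood test of edgeR and Benjamini-Hochberg adjustment over 14145 rows, 0 of 82 members were called at an adjusted p under 0.05, where 1 row of all (0.00707%) was called. DESeq2 called 0 of 81 members with an adjusted p, against 179 of 12180 rows (1.47%), and limma-voom called 0 of 82. The smallest adjusted p among members was 0.269 with edgeR and 0.136 with DESeq2. At an unadjusted p under 0.05, 11 members passed with KO higher and 0 with KO lower, 13.4% of the members, where 6.80% of all rows passed with KO higher and 7.76% with KO lower. This count was 2 without WT replicate 3, 3 under scaling by total counts and 31 under scaling by counts outside mitochondrially encoded rows. The share of all rows that passed in these fits is not given here, so the counts have no background beside them. The median log2 difference over all rows also moved, to 0.01, -0.02 and 0.09 in the same order.

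The precision was high for most of them. The 95% interval of the log2 difference lay inside ±0.25 for 43 of 82 members, inside ±0.5 for 73 and inside ±1 for 79. Of members between 10 and 1000 CPM, 75 in all, the median SD between libraries of a group was 0.07 on the log2 scale, against 0.10 over 8897 rows of the same range. The plot of differences with their intervals shows this by complex.

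**Figure D1:**
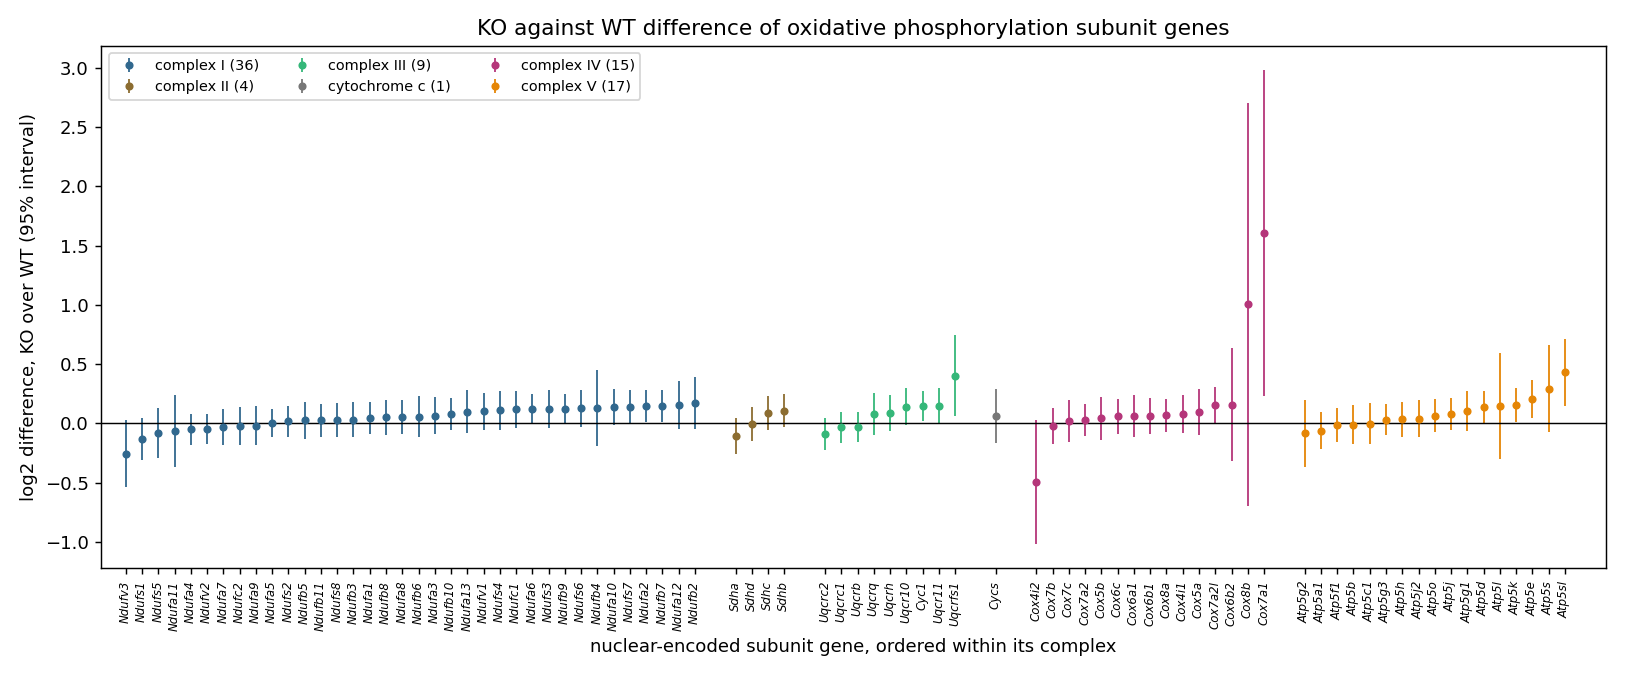
Log2 difference of KO over WT (vertical axis) for the 82 subunit genes that passed the low-count filter, ordered within each complex along the horizontal axis. Points are edgeR estimates from 3 against 3 libraries, bars are 95% intervals. Of the points, 75 lie inside ±0.25, and the widest bars belong to Cox7a1 and Cox8b.

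A small lean toward KO was common to many members. The log2 difference was above 0 in 61 and below 0 in 21, or 74.4% above 0 against 52.5% of all rows, and its median was 0.06 against 0.01 over all rows. The median is equal to a 4.6% higher level in KO. All 3 KO libraries lay above all 3 WT libraries for 21 members (25.6%), against 10.5% of all rows, and below them for 4 members (4.88%), against 11.3%. Those 4 were Cox4i2, Sdha, Uqcrc2 and Atp5a1. Without KO replicate 1, the counts were 27 above and 4 below, against 14.2% of all rows in each direction.

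Markers of cell types differed by more than this lean. Of 10 smooth muscle markers, 9 were below 0 (median log2 difference -0.14), while 9 of 9 tested macrophage markers (0.31), 8 of 10 endothelial markers (0.37), 7 of 8 fat markers (0.28) and 6 of 8 markers of adventitial fibroblasts (0.10) were above 0. Erythroid markers were below 0 in 5 of 5 (-1.47), and edgeR called 0 in any of these lists. At an unadjusted p under 0.05, 2 endothelial markers passed with KO higher, where 6.80% of all rows did. With KO lower, 1 smooth muscle and 2 erythroid markers passed, where 7.76% of all rows did. The summed levels of all these lists overlapped between genotypes. KO replicate 2 had the lowest macrophage sum (52.26 CPM) and the highest smooth muscle sum (57810 CPM) of all libraries. The endothelial sum stood out in KO replicate 3 only (735.5 CPM), and the erythroid sum was lowest in WT replicate 2 (20.30 CPM). All KO libraries were above all WT libraries for 0 of these markers, where 10.5% of all rows were. The part of these markers in the members' lean was not tested.

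The lean was seen across libraries and moved with the scaling. The members' median deviation from the WT mean was 0.02 in WT replicate 1, 0.01 in WT replicate 2 and -0.04 in WT replicate 3, against 0.05, 0.08 and 0.07 in the KO libraries. WT replicate 3 was the lowest library for 42 of 82 members and KO replicate 2 the highest for 31. The median stayed above 0 under each scaling, but 54 of 82 members were above 0 under scaling by total counts, with a median of 0.03 against -0.02 over all rows, and 75 were above 0 under scaling by counts outside mitochondrially encoded rows, with a median of 0.14 against 0.09. Over the main fit and 15 alternatives, 57 of 82 members kept one sign, 51 above 0 and 6 below.

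Subunit genes have a short exon length, and genes of short exon length as a class leaned the same way. Exon length here is the union of all annotated exons of a gene, which can exceed the length of a transcript. Ndufb7, for example, has an exon union of 4522 bases, while its transcript used to search for copies has 623 bases. The median exon length was 1697 bases over the members and 4608 bases over 12422 protein-coding rows tested. Across those rows, exon length and log2 difference had a Spearman correlation of -0.23, given as a description because genes share their libraries. It was -0.10 across the 82 members, and -0.03 across the 80 without the scarce isoforms Cox7a1 and Cox8b. Among genes under 1000 bases, 80.0% of 20 members and 74.5% of 184 protein-coding rows were above 0. Between 1000 and 2000 bases the shares were 76.7% of 30 members and 68.2% of 1195 rows, and between 2000 and 4000 bases 77.3% of 22 and 59.0% of 3745. Above 4000 bases they were 5 of 10 members and 44.4% of 7298 rows. The part of length in the members' lean was not tested.

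In complex I, which takes electrons from NADH, 27 of 36 members were above 0 and 9 below, with a median log2 difference of 0.05 and a range from -0.25 to 0.17. All KO libraries were above all WT libraries for 11 of them and below for 0, where 10.5% and 11.3% of all rows were. The 7 core subunits that carry the redox centres had 5 above and 2 below 0, and the 29 accessory members 22 and 7. Ndufb7, an accessory subunit of the membrane arm, was at 62.7, 65.2 and 62.0 CPM in WT and at 66.7, 73.4 and 70.8 CPM in KO, with libraries here and throughout in the order of their replicate numbers. The groups did not overlap, though KO replicate 1 stood close to the highest WT library. Its log2 difference was 0.15 ± 0.06 (SE), with an adjusted p of 0.315. Ndufa2, an accessory subunit of the peripheral arm, was at 83.7, 81.3 and 76.4 CPM in WT and at 86.4, 89.9 and 90.9 CPM in KO. Here too the groups were apart by a narrow gap, with a log2 difference of 0.15 and an adjusted p of 0.323.

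Ndufv3, an accessory subunit beside the site of NADH oxidation, had the smallest p below 0 in complex I. Its levels were 124, 111 and 141 CPM in WT and 96.5, 123 and 96.6 CPM in KO. KO replicates 1 and 3 were the lowest, while KO replicate 2 was level with WT, so the groups overlapped. The log2 difference was -0.25 ± 0.12 (SE), with an adjusted p of 0.374. A pair of further genes, chosen after their values were seen, show how much 1 library can weigh. Ndufa11, a membrane-arm subunit, was at 77.9, 82.0 and 74.7 CPM in WT and at 59.2, 87.2 and 78.1 CPM in KO, with KO replicate 1 far below the rest. Its log2 difference was -0.06, and 0.08 without KO replicate 1. Ndufs1, the large iron-sulfur core subunit, was at 76.3, 81.8 and 77.6 CPM in WT and at 66.3, 79.0 and 70.2 CPM in KO. KO replicate 2 again lay among the WT libraries.

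Complex II, which oxidizes succinate and has no mitochondrially encoded subunit, summed to nearly the same level in both genotypes, 467 ± 3.61 CPM in WT and 466 ± 15.1 CPM in KO (SD, n = 3 each). Its catalytic subunits lay on opposite sides of 0. Sdha, the flavoprotein, was at 203, 212 and 206 CPM in WT and at 182, 200 and 196 CPM in KO. All KO libraries were below all WT libraries, with KO replicate 1 the lowest, and the log2 difference was -0.10 ± 0.06 (SE, adjusted p 0.458 with edgeR). Sdhb, the iron-sulfur subunit, was at 73.2, 72.0 and 69.3 CPM in WT and at 73.8, 81.4 and 75.9 CPM in KO. KO replicate 1 was within 1 CPM of WT replicate 1, and the log2 difference was 0.11 (adjusted p 0.419). Sdhd, a membrane anchor, was at 75.2, 67.8 and 72.7 CPM in WT and at 74.2, 72.0 and 69.3 CPM in KO, with the ranges overlapping in full. Sdhc, the other anchor, had a log2 difference of 0.09.

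In complex III, 6 of 9 members were above 0, with a median of 0.09. Uqcrfs1 had the largest difference, and those of Cyc1, Uqcr11 and Uqcr10 lay between 0.14 and 0.15. Uqcrfs1, the Rieske iron-sulfur protein, was at 29.8, 29.8 and 43.7 CPM in WT and at 46.2, 46.0 and 44.6 CPM in KO. All KO libraries lay above WT, but WT replicate 3 was at the KO level and far from the other WT libraries. The log2 difference was 0.40 ± 0.15 (SE), with an adjusted p of 0.293 from edgeR, and it lay between 0.31 and 0.61 when each library was left out. Without WT replicate 3 it was 0.61, with an adjusted p of 0.299. Cyc1, the cytochrome c1 subunit that passes electrons to cytochrome c, was at 70.3, 69.2 and 67.7 CPM in WT and at 75.5, 79.5 and 74.1 CPM in KO. The libraries within each genotype were close together and the groups were apart, with a log2 difference of 0.14 ± 0.05 (SE) and an adjusted p of 0.303.

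The core proteins of complex III, which carry no redox centre, were below 0 instead. Uqcrc2 was at 133, 128 and 132 CPM in WT and at 118, 127 and 125 CPM in KO. The gap between the lowest WT and the highest KO library was under 1 CPM, and the log2 difference was -0.09, with an adjusted p of 0.483. Uqcrc1 had a log2 difference of -0.03. Uqcrh, the hinge protein that helps cytochrome c dock, was at 174, 163 and 159 CPM in WT and at 170, 184 and 173 CPM in KO, with overlapping groups. Cycs itself was at 19.6, 18.2 and 18.7 CPM in WT and at 20.8, 17.1 and 21.1 CPM in KO. KO replicate 2 was the lowest of all libraries, and the log2 difference was 0.06 with a 95% interval from -0.17 to 0.29.

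**Figure D2:**
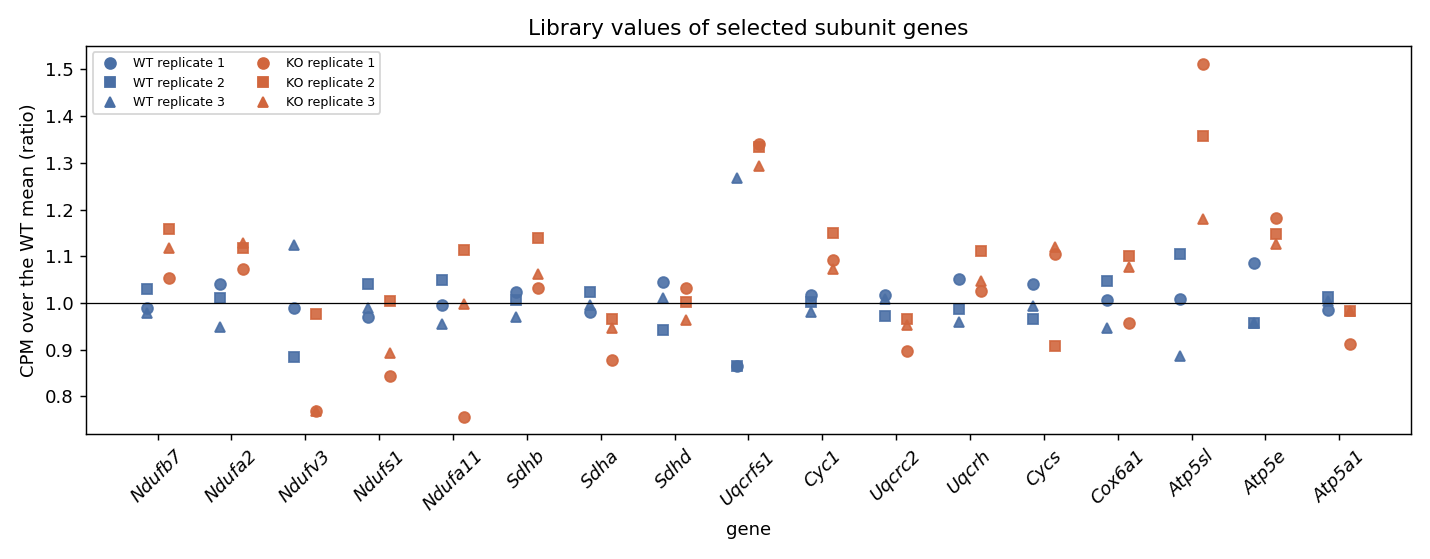
CPM of 17 subunit genes in each library, divided by the mean of the 3 WT libraries (vertical axis, ratio), with genes ordered by complex along the horizontal axis. Each point is 1 library. Most points lie near 1, WT replicate 3 stands with the KO libraries for Uqcrfs1, and KO replicate 1 stands alone for Ndufa11.

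In complex IV, the oxygen-consuming enzyme, 13 of 15 tested members were above 0, with a median of 0.07. The ubiquitous subunits differed little. Cox6a1 was at 169, 176 and 159 CPM in WT and at 161, 185 and 181 CPM in KO, with overlapping groups and a log2 difference of 0.06. Cox4i1, the common form of the regulatory subunit, was at 224, 225 and 218 CPM in WT and at 219, 249 and 238 CPM in KO, again overlapping. The larger differences belonged to isoforms that are scarce in these samples, all under 6 CPM.

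Cox4i2, the isoform of lung and of cells that sense low oxygen, had all KO libraries below all WT libraries. It was counted 63, 72 and 67 times in WT and 29, 51 and 44 times in KO, or 2.75 ± 0.12 CPM and 1.95 ± 0.47 CPM (SD, n = 3 each). The highest KO library reached 2.44 CPM and the lowest WT library 2.62 CPM. The log2 difference was -0.50 ± 0.23 (SE), with an adjusted p of 0.359 from edgeR. As a share of the Cox4i1 and Cox4i2 pair per kilobase it was 2.24%, 2.44% and 2.44% in WT and 1.33%, 1.89% and 1.55% in KO. The exact two-sided permutation p was 0.1, the smallest that 3 against 3 libraries can give, and 0.6 adjusted over the 6 isoform groups compared.

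Cox6a2, Cox7a1 and Cox8b are isoforms of heart and skeletal muscle, and brown fat expresses Cox7a1 and Cox8b as well. Cox6a2 was counted 0, 2 and 0 times in WT and 48, 4 and 0 times in KO, so KO replicate 1 held nearly all of it. Cox7a1 was counted 25, 14 and 7 times in WT and 37, 16 and 71 times in KO. KO replicate 2 lay within the WT range, and the log2 difference was 1.61 ± 0.59 (SE, adjusted p 0.296 with edgeR), between 1.08 without KO replicate 3 and 2.17 without WT replicate 1. Cox8b was counted 69, 19 and 20 times in WT and 40, 20 and 135 times in KO. KO replicate 3 was the highest and WT replicate 1 the next, and the log2 difference of 1.01 ± 0.73 (SE) was 0.02 without KO replicate 3.

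Markers of heart muscle and brown fat were uneven over the same libraries. Myh6, the atrial myosin heavy chain, was counted 9, 41 and 10 times in WT and 259, 64 and 10 times in KO, and Myl7, an atrial light chain, 0, 14 and 8 times in WT and 98, 15 and 0 times in KO. Both were highest in KO replicate 1, as Cox6a2 was. Of the other heart muscle markers, Tnnt2, Tnni3, Actc1, Mybpc3, Csrp3, Myl3 and Nppa were also highest there by CPM. Ryr2 was highest in WT replicate 3 (93.12 CPM), Pln in KO replicate 3 (29.80 CPM) and Myl2 in WT replicate 2. Fabp3 (13.81 CPM) and Hrc (32.10 CPM) were highest in KO replicate 2, and Hrc was lowest in KO replicate 1 (15.88 CPM). The 14 heart muscle markers, 9 of them tested, summed to 129.2 to 156.8 CPM in WT and 146.4 to 194.9 CPM in KO, with Ryr2, which smooth muscle also expresses, the highest of them in each library. Of the defining ventricular genes, Myl2 had 1 count and Myl3 had 2 counts over all libraries. Ucp1, the uncoupling protein of brown fat, was counted 110, 23 and 36 times in WT and 30, 6 and 351 times in KO. KO replicate 3 and WT replicate 1 were the highest libraries for Ucp1, as they were for Cox8b. Otop1, another brown fat gene, was counted 14, 8 and 3 times in WT and 7, 0 and 29 times in KO, with the same highest libraries. Elovl3 and Cpt1b had the same highest libraries, at 7 and 2 counts in KO replicate 3 and 2 and 1 in WT replicate 1. Cidea, Dio2 and Ppara, also of the brown fat list, did not share that order. Cidea was highest in KO replicate 3, but WT replicate 3 was next. Dio2, the most counted member of the list, was counted 829, 482 and 1334 times in WT and 1955, 573 and 735 times in KO. Ppara was counted 72, 76 and 104 times in WT and 38, 55 and 63 times in KO. Dio2 was thus highest in KO replicate 1 and Ppara in WT replicate 3. The 7 markers, 4 of them tested, summed to 34.68 to 75.56 CPM in WT and to 107.6, 43.18 and 70.81 CPM in KO replicates 1, 2 and 3, and Cpt1b was at 0 in 4 libraries. The order of Ucp1 was not limited to brown fat genes. Of the markers for fat of any kind, Adipoq, Plin1, Cidec, Fabp4, Retn and Cfd also had KO replicate 3 and WT replicate 1 highest by CPM. Adipoq, for example, was at 18.04 CPM in KO replicate 3 and 16.64 CPM in WT replicate 1. Lep and Plin4 did not share that order. The part of these markers in the isoform values was not tested.

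**Figure D3:**
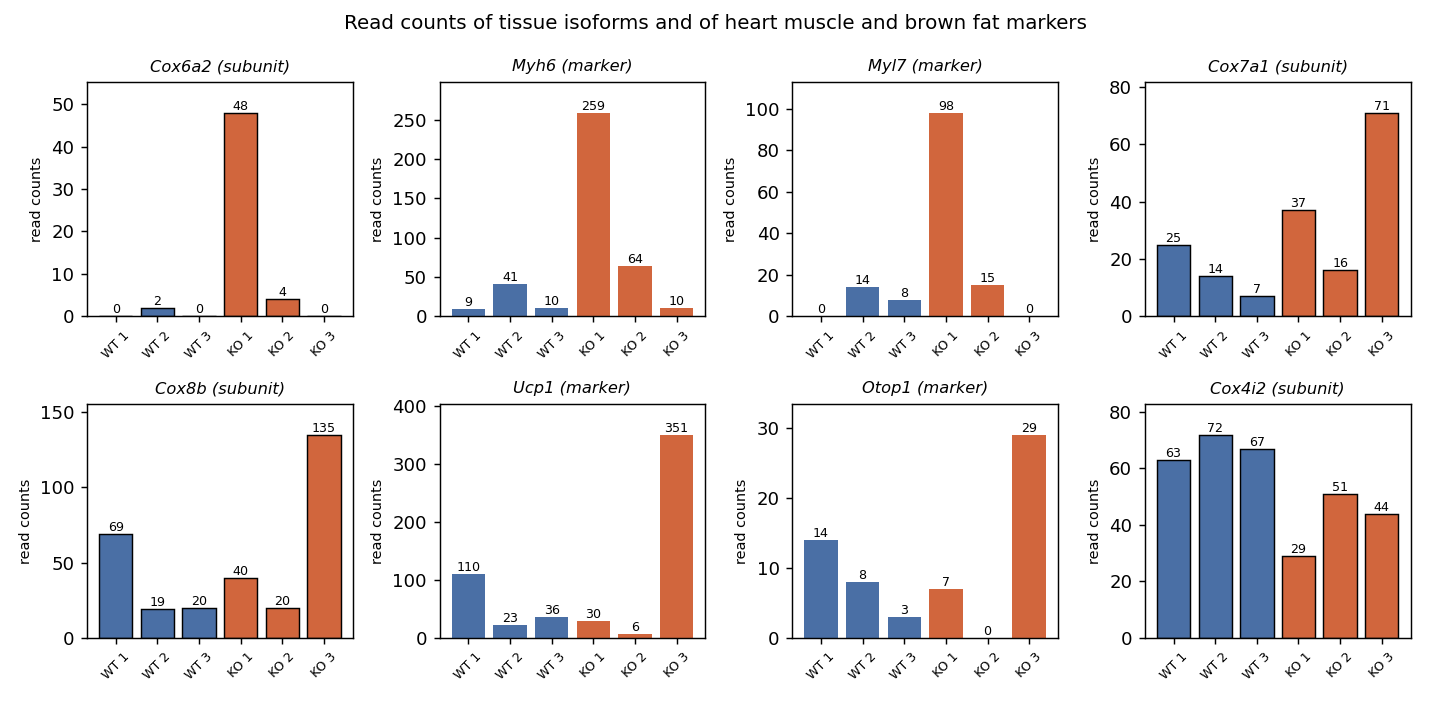
Read counts per library (vertical axes, 1 scale per panel, from 0) of 4 complex IV isoforms, with outlined bars, and of 4 markers, heart muscle Myh6 and Myl7 and brown fat Ucp1 and Otop1. Blue bars are WT and orange bars KO replicates 1 to 3. Cox6a2 is highest in KO replicate 1 (48 counts) and Cox8b in KO replicate 3 (135 counts), the libraries with the most Myh6 (259) and Ucp1 (351).

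The remaining isoform shares overlapped between genotypes. Cox6b2, the testis isoform, was counted at 2.28, 2.34 and 2.11 CPM in WT and at 2.63, 2.87 and 2.03 CPM in KO, and made up 1.26% ± 0.04 and 1.36% ± 0.29 of its pair (SD, n = 3 each; exact permutation p = 0.6). Cox7a1 made up 1.06% ± 0.60 of its pair in WT and 3.08% ± 1.76 in KO (n = 3 each, exact permutation p = 0.2), and Cox8b 2.63% ± 2.04 and 4.85% ± 4.04 (n = 3 each, exact permutation p = 0.5). Cox6a2 made up 0.02% and 0.56% (exact permutation p = 0.4). The c ring of complex V is encoded by Atp5g1, Atp5g2 and Atp5g3, which yield the same mature protein. Atp5g2 contributed 15.2%, 17.3% and 17.1% of their sum in WT and 13.2%, 17.1% and 15.8% in KO, with KO replicate 1 the lowest (exact permutation p = 0.5). All 6 values were 0.6 after Benjamini-Hochberg adjustment.

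In complex V, the ATP synthase, 12 of 17 members were above 0, or 10 of 15 without the genes that only share the name, whose median was 0.04. The catalytic head was split. Atp5a1, the alpha subunit, was at 475, 489 and 485 CPM in WT and at 441, 474 and 474 CPM in KO, all KO libraries below WT but by less than 1 CPM at the nearest point. Its log2 difference was -0.06 with an adjusted p of 0.695. Atp5b, the catalytic beta subunit and the most counted member, was at 542, 549 and 527 CPM in WT and at 521, 568 and 519 CPM in KO, with overlapping groups. The alpha and beta genes together made up 14.8% of the summed nuclear level in WT.

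The small subunits of the central stalk were above 0. Atp5e, the epsilon subunit, chosen after its values were seen, was at 98.4, 86.8 and 86.7 CPM in WT and at 107, 104 and 102 CPM in KO. WT replicate 1 was between the other WT libraries and KO, and the groups did not overlap. The log2 difference was 0.20 ± 0.07 (SE), with an adjusted p of 0.279 from edgeR. Atp5d, the delta subunit, and Atp5k, the e subunit of the membrane part, had log2 differences of 0.14 and 0.15, with KO libraries above WT for both. The peripheral stalk genes Atp5f1, Atp5h, Atp5j and Atp5o lay between -0.01 and 0.08.

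Atp5sl, known today as Dmac2 and linked to complex I assembly, had the smallest p of all members. It was at 15.3, 16.7 and 13.4 CPM in WT and at 22.9, 20.5 and 17.9 CPM in KO. Every KO library was above every WT library, with KO replicate 3 the nearest to WT. The log2 difference was 0.43 ± 0.12 (SE), the adjusted p was 0.269 with edgeR, and the value stayed between 0.34 and 0.52 when each library was left out.

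Most tested transcripts encoded by mitochondrial DNA differed far more than those of their nuclear partners. The 85 nuclear genes summed to 6987, 6935 and 6764 CPM in WT and to 6846, 7255 and 7094 CPM in KO. The groups overlapped, at 6895 ± 116 and 7065 ± 206 CPM (SD, n = 3 each), a ratio of 1.02. The mitochondrially encoded subunits summed to 75230, 89860 and 53940 CPM in WT and to 191200, 98040 and 127800 CPM in KO. All KO libraries were above WT, with KO replicate 1 far above and KO replicate 2 close to WT replicate 2, a ratio of means of 1.90. Of 7 such genes that passed the filter, 7 were above 0 with a median log2 difference of 0.89, and edgeR called 0 of them after adjustment. At an unadjusted p under 0.05, 6 of the 7 passed with KO higher, where 6.80% of all rows did. The exception was mt-Nd6, with a log2 difference of 0.05 ± 0.50 (SE) and overlapping groups. mt-Co1, the catalytic subunit of complex IV, had a log2 difference of 0.98 ± 0.29 (SE) and an adjusted p of 0.273. The other 6 of the 13 genes had few or no counts over all libraries: 0 for mt-Atp6, mt-Atp8 and mt-Nd4l, 3 for mt-Co2, 9 for mt-Nd3 and 19 for mt-Co3. Complex V could therefore not be compared, and the complex IV sum is in effect that of mt-Co1 and the complex III sum that of mt-Cytb.

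The ratio of mitochondrial to nuclear transcripts was uneven across libraries. For all complexes it was 10.8, 13.0 and 7.97 in WT and 27.9, 13.5 and 18.0 in KO, with KO replicate 2 just above WT replicate 2. The ratio of mean ratios was 1.82 for complex I, 1.87 for complex III (mt-Cytb) and 1.91 for complex IV (mt-Co1). The nuclear subunits took 0.697% ± 0.014 of all counts in WT and 0.698% ± 0.033 in KO (SD, n = 3 each). Of the counts outside mitochondrially encoded rows they took 0.772%, 0.752% and 0.737% in WT and 0.816%, 0.808% and 0.811% in KO, where the groups did not overlap. The log2 ratio of these mean shares was 0.11. Under scaling by the same counts, the median log2 difference over all rows was 0.09, against 0.01 in the main fit. Rows in general thus moved up too, and the share of all rows without overlap under this scaling is not given here. The part of the mitochondrially encoded share in these values was not tested.

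**Figure D4:**
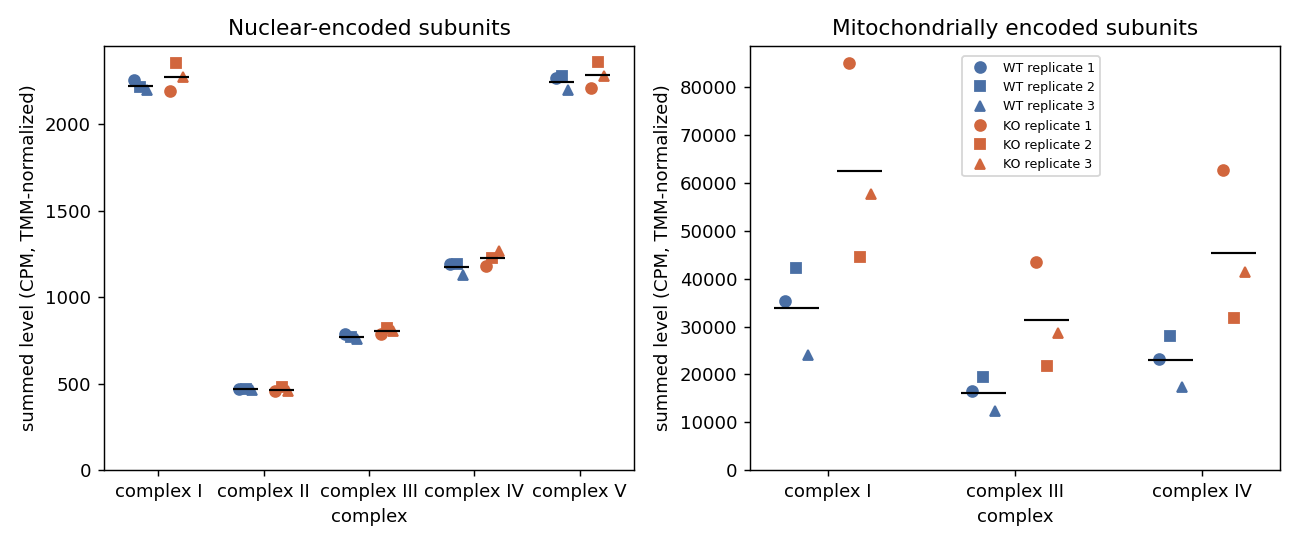
Summed TMM-normalized CPM (vertical axes, from 0) of the nuclear-encoded subunits of each complex (left) and of the mitochondrially encoded subunits of complexes I, III and IV (right), where complex III is mt-Cytb and complex IV in effect mt-Co1. Each point is 1 library and each line the mean of 3. The nuclear sums nearly coincide between genotypes, while KO replicate 1 reaches 85000 CPM for mitochondrially encoded complex I against 42310 CPM in the highest WT library.

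Other genes of the pathway were described from lists, with 0 called by edgeR or DESeq2 in any. Of 76 mitochondrial ribosomal protein genes tested, 63 were above 0, with a median log2 difference of 0.09, and all KO libraries were above WT for 13, where 10.5% of all rows were. At an unadjusted p under 0.05, 6 of the 76 passed with KO higher and 1 with KO lower, where 6.80% and 7.76% of all rows did, so the count with KO higher was near that of all rows. Mrpl24 had the smallest p, at 63.5 ± 2.03 CPM in WT and 73.4 ± 2.66 CPM in KO (SD, n = 3 each), with an adjusted p of 0.264 from edgeR. Assembly factors of complex I were above 0 in 11 of 14, of complex II in 3 of 4, of complex III in 4 of 6 and of complex IV in 15 of 23, while those of complex V, with its inhibitor, were above 0 in 2 of 6. Their medians lay between -0.00245 and 0.08. The members with the smallest p were Ecsit (0.22), Sdhaf4 (0.20), Uqcc2 (0.13), Coa3 (0.20) and Atpaf2 (0.23), given as log2 differences.

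Regulators and the citric acid cycle leaned the other way. Of 9 regulators of respiratory genes, 7 were below 0 with a median of -0.10. Yy1, a factor that binds many respiratory promoters, was at 86.6, 88.6 and 89.8 CPM in WT and at 80.9, 82.2 and 79.2 CPM in KO. The groups were apart, with a log2 difference of -0.13 ± 0.05 (SE) and an adjusted p of 0.320. Of 17 citric acid cycle genes, which feed NADH and succinate into the chain, 12 were below 0 with a median of -0.04. Pdhb, of pyruvate dehydrogenase, had the smallest p among them with a log2 difference of 0.14. Genes for transcription and copying of mitochondrial DNA were above 0 in 10 of 14, with a median of 0.04, and Polg, its polymerase, was at 51.9 ± 1.25 CPM in WT and 56.5 ± 2.82 CPM in KO (SD, n = 3 each).

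Subunits that the symbol rule did not take were examined too. Ndufab1, the acyl carrier protein that is also a complex I subunit, was at 17.1, 15.5 and 17.4 CPM in WT and at 24.5, 21.5 and 19.4 CPM in KO. All KO libraries were above WT, the log2 difference was 0.39 ± 0.10 (SE) and the adjusted p was 0.264. Ndufa4l2, a relative of Ndufa4 that low oxygen induces, was at 6.02, 3.74 and 6.79 CPM in WT and at 8.20, 3.34 and 7.96 CPM in KO, so that replicate 2 was the lowest in both genotypes. Cyct, the cytochrome c of testis, had 0 to 3 counts per library.

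Members were also set apart by the promoter motifs shown at the start. Those with the NRF1 letters had a median log2 difference of 0.06 (24 tested), and those without 0.07 (42 tested), or 0.03 and 0.08 with the longer form. The medians were 0.08 with and 0.05 without the ETS motif, 0.08 and 0.06 for the YY1 motif, and 0.14 and 0.06 for the motif of estrogen-related receptors, which 8 tested members held. These medians carry no test.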

How the data were processed

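mRNA sequencing of aortic smooth muscle was used, 3 WT and 3 KO libraries. The authors deposited a table of 53735 rows with unnormalized whole read counts. Tools named in the submitters' processing notes are featureCounts (Subread 1.6.1), STAR 2.6.0c and Trimmomatic 0.36, with build GRCm38. The sources used here do not give the annotation release, the strand setting or how reads with several alignments were treated.

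The filter filterByExpr (at least 10 counts, 15 in total) left 14145 rows, which were tested by quasi-likelihood in edgeR 4.0.16 under R 4.3.3 (TMM, genotype as the only term, two-sided p, Benjamini-Hochberg over all rows, threshold 0.05). DESeq2 1.42.0 and limma-voom (limma 3.58.1) were alternatives, besides other filters, scalings, a replicate block and leaving out each library. RPKM are CPM per kilobase of the exon union in GENCODE M21 (GRCm38), and all 85 members matched it. Copies were found with BLAST 2.17.0. Libraries differed by more than sampling noise (chi-square per row from 15.08 to 70.59). Replicate numbers were not used for pairing: the series text speaks of pairs of mice without saying what a number shares.

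The members and gene lists were chosen with earlier results of these data known. By rule, library values are given for the tissue isoforms, Cycs, Cyc1 and the 4 largest differences. They are also given per complex for the member with the smallest p above and below 0 and of highest level per kilobase. Of each related list the member with the smallest p is named, several of them only by group means or by the log2 difference. Ndufs1, Ndufa11, Cox4i1, Atp5b and Atp5e and the 4 markers plotted were chosen after their values were seen. Promoter windows are from RefSeq (GRCm38.p6).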

Additional observations from a re-analysis of the deposited data

How the results depend on the processing

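The count of called subunit genes was 0 in the main fit and in each of the 15 alternatives run. Over all rows, edgeR called 1, DESeq2 179 of 12180 (63 higher and 116 lower in KO), and edgeR without a filter on low counts 9. Leaving out each library gave 0 to 3 calls over all rows, 0 without WT replicate 1 and 3 without KO replicate 2. The members' median log2 difference was 0.138 under scaling by counts outside mitochondrially encoded rows, an alternative chosen after the data were seen, as was scaling by total counts. It ranged from 0.0519 to 0.0878 when each library was left out. With the replicate number as a block, 0 rows were called and the members' median was 0.0642. Same-numbered KO and WT libraries had correlations of 0.12, 0.12 and -0.0521 between their deviations over 14145 rows. Libraries of different number had correlations from -0.287 to 0.164. With 3 libraries per group, these values cannot tell whether the numbers pair the samples. The number of members at an unadjusted p under 0.05 was 11 in the main fit, 2 without WT replicate 3 and 6 with the block. The share of all rows that passed is given for the main fit only. The scarce isoforms Cox4i2, Cox7a1 and Cox8b had 326, 170 and 303 counts in all, and their 95% intervals reach beyond ±1. Cox6b2, with 323 counts in all, had a 95% interval from -0.32 to 0.63. The part of depth in the width of these intervals was not tested.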
